A study of Homo sapiens with 8 samples.

Results

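The CADM and nectin adhesion molecules were followed by RNA-Seq through nickel exposure and wash-out of BEAS-2B cells (human bronchial epithelium, immortalised in culture). The family was taken by gene symbol and comprised 9 of the 25411 genes in each library. They were the 4 CADM genes (CADM1, CADM2, CADM3 and CADM4), PVR, and the 4 nectin genes, which the files list under their older PVRL names (PVRL1 is now NECTIN1, PVRL2 is NECTIN2, PVRL3 is NECTIN3 and PVRL4 is NECTIN4). The 8 libraries formed 4 groups of 2. Untreated cells (UT) were the control. The Ni-E group was sampled after 6 weeks in 100 µM NiCl2. The Ni-W group came from the same kind of exposure and was a single population, grown from 1 exposed cell and kept free of nickel for over 6 months. The treatment given for HCl3 reads as that of Ni-W, with no time without nickel and no stated relation to Ni-W. Hence each washed-out group may stand for its own clone rather than for wash-out in general. Experiment numbers in the labels (2 for Ni-E, 3 and 4 for HCl3, none for UT or Ni-W) cannot be told apart from the groups.

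Nectins are immunoglobulin-like membrane proteins that bind each other across cell borders without calcium. Their tails bind afadin, which ties them to actin and places them beside cadherins at adherens junctions. CADM proteins, also called nectin-like molecules or SynCAMs, have similar outer domains, and their tails bind scaffolds of the EPB41 and membrane-associated guanylate kinase families instead of afadin. PVR, the poliovirus receptor, is a nectin-like protein that is also read by receptors on natural killer and T cells. In lung epithelium CADM1 is known as a tumour suppressor (TSLC1), CADM2 and CADM3 are best known from neurons, and CADM4 from epithelia and Schwann cells.

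The promoters of the 3 family members that the results turn on are shown first, as the 250 bases upstream of the annotated start, 5′ to 3′ on the strand of the gene, from RefSeq (GRCh38.p14). A RefSeq promoter was matched for 6 of the 9 members. Capitals mark the core of the hypoxia response element (ACGTG or GCGTG, read on both strands), which is shown because nickel is widely known to stabilise the hypoxia-inducible factors that bind it.
CADM3, chr1:159171365-159171614, plus strand: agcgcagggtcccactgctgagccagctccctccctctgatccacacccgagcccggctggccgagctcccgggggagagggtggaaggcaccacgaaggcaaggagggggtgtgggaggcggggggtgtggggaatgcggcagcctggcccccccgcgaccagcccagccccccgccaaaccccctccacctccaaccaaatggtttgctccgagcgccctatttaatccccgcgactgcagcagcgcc
CADM4, chr19:43639851-43640100, minus strand: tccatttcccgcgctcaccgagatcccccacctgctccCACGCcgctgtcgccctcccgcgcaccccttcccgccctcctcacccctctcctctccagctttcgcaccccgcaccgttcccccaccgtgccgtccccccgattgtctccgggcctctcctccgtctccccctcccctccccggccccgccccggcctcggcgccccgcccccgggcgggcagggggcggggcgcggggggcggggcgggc
PVRL4, chr1:161089559-161089808, minus strand: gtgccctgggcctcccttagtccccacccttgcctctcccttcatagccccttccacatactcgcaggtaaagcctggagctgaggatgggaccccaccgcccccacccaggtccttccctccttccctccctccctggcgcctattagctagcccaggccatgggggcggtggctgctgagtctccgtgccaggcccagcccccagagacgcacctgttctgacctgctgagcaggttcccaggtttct
The CADM4 window held 1 such core, on the opposite strand and 212 bases upstream of the start, and the CADM3 and PVRL4 windows held 0. Of 35116 RefSeq promoter windows of this length, 43.2% held at least 1. The E2-box CACCTG, bound by the ZEB and SNAI repressors, occurred once in the CADM4 window and once in the PVRL4 window and did not occur in that of CADM3, against 17.5% of windows with at least 1. The GC-box GGGCGG occurred 7 times in CADM4, 2 times in PVRL4 and 0 times in CADM3, and 42.6% of windows held it. The CADM4 promoter was rich in CpG, with 30, more than 87.6% of all windows had. CADM3 had 16 and PVRL4 only 6. Neither the hypoxia core nor the E2-box of CADM4 overlapped a GC-box. These are matches of letters only, and binding at them was not measured in these libraries.

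Total counts ranged from 26383920 to 45692298 reads per library, so that 3 reads, taken as the smallest level counted as seen, stood for 0.0657 to 0.114 RPM (reads per 1000000 reads). Levels are given as RPKM, the reads of a gene per unit of transcript length and of library size, which can be compared between genes. The epithelial label was checked against 6 markers. The keratins KRT8 and KRT18 were abundant in all groups (group means of 206 to 302 and 146 to 236 RPKM), whereas CDH1 (E-cadherin) had 2 to 18 reads per library, KRT5 0 to 3, and EPCAM group means of 0.970 to 1.62 RPKM. KRT19 was at 0.01 RPKM in UT and Ni-E and at 0.655 and 0.725 in Ni-W and HCl3. Of 6 fibroblast markers, COL1A1 had group means of 232 to 443 RPKM and PDGFRB of 13.2 to 27.8, whereas COL1A2 reached 2.03, LUM 0.63 and COL3A1 0.065 RPKM, and DCN had 0 reads. Against UT, COL1A2 and COL3A1 were called higher in HCl3, and COL1A1 was called lower in Ni-W. In Ni-E, COL1A2 and PDGFRB were called lower than in UT, and LUM was called higher. Of the leukocyte markers, CD3E had 0 reads, PTPRC at most 7, ITGAM at most 16 and NCAM1 at most 35. CD14 had 47 to 330 reads per library.

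In untreated cells the family was led by PVRL2 and PVR. Mean RPKM (± SD, n = 2) was 54.3 ± 2.1 for PVRL2, 21.5 ± 0.23 for PVR, 11.5 ± 0.55 for CADM4, 8.76 ± 1.3 for PVRL3, 4.54 ± 0.078 for PVRL1 and 0.260 ± 0.014 for PVRL4. Ranges of neighbours in this order did not overlap. The smallest step was between CADM4 and PVRL3, at 1.32 times. CADM3 had 0 and 2 reads, and CADM2 and CADM1 had none. Ni-E kept this order. In both washed-out groups CADM4 stood above PVR, and CADM3 was detected, above PVRL1 in Ni-W (6.74 ± 0.35 against 4.65 ± 0.50) and below it in HCl3 (2.30 ± 0.18 against 4.76 ± 0.55). Here too the ranges of neighbouring genes with reads in both libraries did not overlap.

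**Figure D1:**
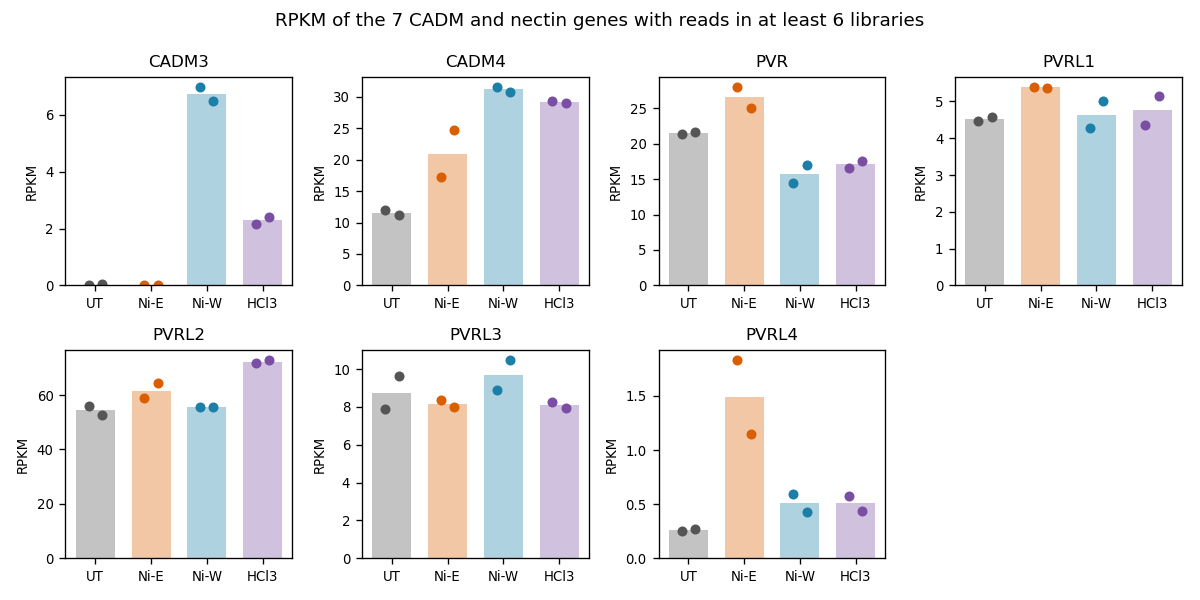
RPKM of the 7 family members with reads in at least 6 of the 8 libraries. Points are libraries and bars are means of the 2 libraries of a group, on a linear axis from 0 that differs between panels. CADM3 lies at 0.03 or below in UT and Ni-E and at 2.17 to 6.98 in the washed-out groups, CADM4 is lowest in UT, and PVRL4 is highest in Ni-E.

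CADM1 (chromosome 11, 115044345 to 115375241, minus strand, hg19 as for each position from the files) had 0 reads in all 8 libraries, which allows a level of up to 0.0657 to 0.114 RPM in each, a limit that covers counting error only. CADM2 (chromosome 3, 85775632 to 86123579, plus strand) had 2 and 2 reads in Ni-W and 0 in the other 6 libraries, each under the 3 reads that a library needed to be counted as seen. No fold change is given for either gene.

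CADM3 (chromosome 1, 159141414 to 159172932, plus strand), a cell adhesion molecule of neurons, was nearly silent in UT and Ni-E and present in every washed-out library. It had 0 and 2 reads for UT, 0 and 2 for Ni-E, 1280 and 804 for Ni-W, and 318 and 369 for HCl3. The corresponding RPKM were 0 and 0.03, 0 and 0.02, 6.98 and 6.49, and 2.17 and 2.42. The washed-out libraries did not overlap the others, and both Ni-W libraries were above both HCl3 libraries. CADM3 was picked out earlier on UT, Ni-E and Ni-W, so among those groups its values are a description. From the reads summed per group and scaled by size factors, Ni-W was 844 times UT (95% exact counting interval 233 to 6976) and 935 times Ni-E (258 to 7725). The intervals are wide because each of UT and Ni-E had only 2 reads in all, and they cover counting error only. Both of those reads lay in the second library of the group. Without UT replicate 1 the ratio of Ni-W to UT was 345, and without UT replicate 2 it was at least 333, taken against 3 reads. The ratio of Ni-W to Ni-E was likewise 472 without Ni-E replicate 1 and at least 309 without Ni-E replicate 2.

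HCl3 took no part in that choice, although its comparisons share the UT, Ni-E or Ni-W libraries that did. CADM3 in HCl3 was 282 times UT (95% exact counting interval 77.8 to 2335) and 313 times Ni-E (86.2 to 2586). DESeq2 called both differences, but no p is given, because the levels in UT and Ni-E had helped to choose the gene. The call against UT was lost when either HCl3 library was left out. Fitted log2 fold changes were then 7.997 without HCl3 replicate 1 and 7.84 without replicate 2, against 8.13 with both. Without UT replicate 1 the ratio to UT was 115, and without UT replicate 2 at least 111. Between the washed-out groups, CADM3 was lower in HCl3 than in Ni-W by a log2 fold change of -1.57 ± 0.14 (SE), or 2.97-fold, which is given with no p because its level in Ni-W had helped to choose it. CADM3 also took a larger part of the summed RPKM of the CADM genes in Ni-W (18.1 and 17.4%) than in HCl3 (6.87 and 7.68%), and at most 0.269% in any UT or Ni-E library.

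An antisense gene, CADM3-AS1, overlaps the CADM3 span on the opposite strand (chromosome 1, 159165775 to 159172212). It had 0 reads in UT and Ni-E, 6 and 2 for Ni-W, and 2 and 0 for HCl3. Whether counting used strand is not stated, so reads of this pair cannot be told apart, but the antisense gene was assigned 8 reads against 2084 for CADM3 in Ni-W. ACKR1, a chemokine-binding receptor that starts 2116 bases downstream on the same strand, was singled out after its values were seen. It had 0 reads in the 4 UT and Ni-E libraries, 59 and 22 for Ni-W, and 6 and 12 for HCl3. Of 108 other genes with a mean normalised count of at least 50 and a midpoint within 5 Mb of that of CADM3, 14 were called higher and 2 lower in Ni-W than in UT, where 15.7% of all genes tested were called, and the median of their log2 fold changes was 0.27. In HCl3 against UT, 9 were called higher and 2 lower, beside 14.8% of all genes tested, with a median of 0.080.

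Because CADM3 is best known from neurons, markers of neurons and Schwann cells were read beside it. The summed RPKM of 5 markers was 0.16 to 0.17 in UT, 0.16 to 0.30 in Ni-E, 0.42 to 0.50 in Ni-W and 0.33 to 0.35 in HCl3. This sum was also higher in the washed-out libraries, but most of it was SYP (group means of 0.14, 0.19, 0.39 and 0.265 RPKM in that order). RBFOX3 was lower in HCl3 than in UT (0.015 against 0.025 RPKM). In each of the 6 comparisons, 0 of the 5 markers were called. Their reads were so few that only 1 to 3 of the 5 could be tested in any comparison. S100B had 0 reads in all libraries, SOX10 at most 1, RBFOX3 at most 6 and SNAP25 at most 8, while SYP reached 43 reads. The summed level of 5 lymphoid and myeloid markers moved in the same way, from 1.06 to 1.83 in UT and 1.10 to 1.99 in Ni-E to 3.07 to 4.37 in Ni-W and 3.02 to 4.23 in HCl3. CD14 and NCAM1 were the 2 of these 5 that were called higher in both washed-out groups against UT. The 4 endothelial markers were near 0 but followed the same order, at 0.01 to 0.03 RPKM in UT, 0.03 to 0.05 in Ni-E, 0.11 to 0.13 in Ni-W and 0.09 to 0.14 in HCl3, with VWF called in Ni-W and KDR in HCl3 against UT. The 6 epithelial markers summed to 338 to 369 RPKM in UT, 372 to 435 in Ni-E, 466 to 494 in Ni-W and 522 to 558 in HCl3. The 6 fibroblast markers differed from this order in their sum, with Ni-W below UT and HCl3 above it. Their sums were 359 to 413 RPKM in UT, 189 to 354 in Ni-E, 243 to 269 in Ni-W and 461 to 484 in HCl3. Most of this sum was COL1A1, with group means of 364 RPKM for UT, 232 for Ni-W and 443 for HCl3. Of the fibroblast markers with reads, COL1A1 alone had a lower mean for Ni-W than for UT. PDGFRB was at 24.0 RPKM for Ni-W against 21.7 for UT. For HCl3, only LUM had a lower mean than for UT (0.005 against 0.08 RPKM). The part of these marker lists in the level of CADM3 was not tested. In bulk RNA a larger share of cells that carry a transcript and more transcript per cell cannot be told apart.

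CADM4 (chromosome 19, 44126522 to 44143991, minus strand), the CADM gene of epithelia and Schwann cells, was called higher than UT in all 3 nickel-treated groups. Reads were 1098 and 714 for UT, 1443 and 2059 for Ni-E, 3537 and 2336 for Ni-W, and 2636 and 2721 for HCl3. In RPKM, UT had 11.9 and 11.1, Ni-E 17.2 and 24.8, Ni-W 31.6 and 30.8, and HCl3 29.4 and 29.1. The ranges of all 4 groups were separate, with UT lowest and Ni-W highest, and the Ni-E libraries were the most unlike each other.

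The log2 fold change of CADM4 against UT was 0.80 ± 0.17 (SE) in Ni-E (DESeq2 adjusted p = 8.80e-05), 1.40 ± 0.12 in Ni-W (6.37e-29) and 1.29 ± 0.11 in HCl3 (1.75e-27). These comparisons share the UT libraries and are not independent of each other. The call in Ni-E rested on its second library, without which the log2 fold change was 0.54 with adjusted p = 0.148. It was also lost after GC and length trends had been removed (0.58, just under 1.5-fold, adjusted p = 0.00305) and with limma on RPKM values, where the log2 fold change was about as large (0.79 and 0.83, adjusted p = 0.139 and 0.147) and no gene of any kind was called. In Ni-W and HCl3 the call held in each alternative run.

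Compared with Ni-E directly, CADM4 was higher in Ni-W by 0.58 ± 0.14 on the log2 scale (adjusted p = 0.000242) and in HCl3 by 0.47 ± 0.13 (adjusted p = 0.00201). Both were short of 1.5-fold, and 8 alternatives made the first a call. The second Ni-E library weighed on both. Without Ni-E replicate 2 they were 0.84 and 0.73, both past 1.5-fold, and without Ni-E replicate 1 they were 0.35 (adjusted p = 0.0502) and 0.25 (adjusted p = 0.0754). Without either HCl3 library the second had adjusted p values of 0.0946 and 0.106. HCl3 and Ni-W were not found to differ (-0.11 ± 0.085, 95% interval -0.27 to 0.058, adjusted p = 0.469), although after GC and length trends had been removed the value was -0.25, with adjusted p = 0.0160 (0.162 with the replicate block as well).

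**Figure D2:**
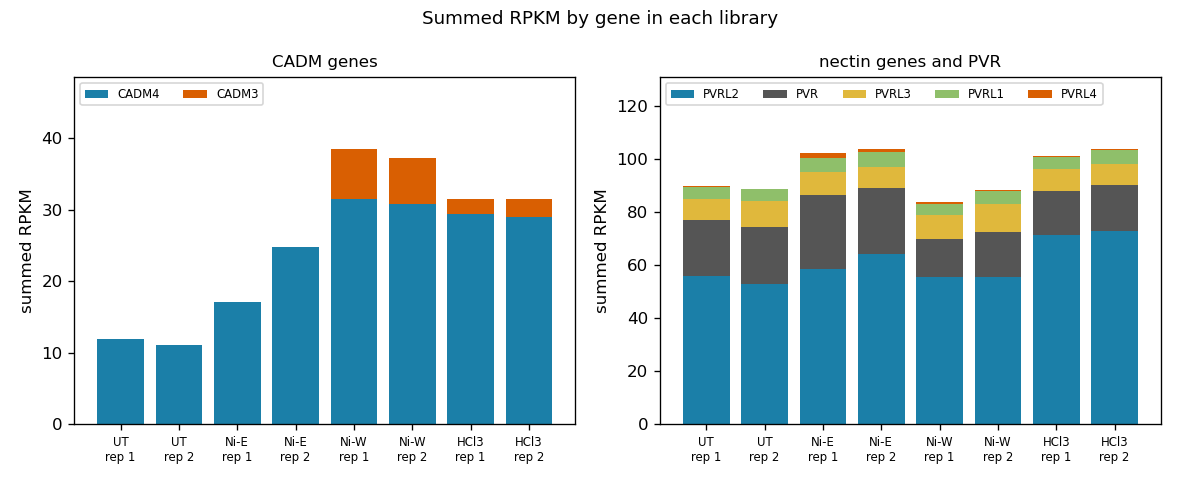
Summed RPKM of the CADM genes (left) and of PVR and the nectin genes (right) in each library, stacked by gene, on linear axes from 0. The CADM sum is 11.2 and 11.9 in UT and 31.5 to 38.5 in the washed-out libraries, most of it CADM4, while the nectin sum stays between 83.7 and 104.

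PVR (chromosome 19, 45147098 to 45169428, plus strand), the ligand of the lymphocyte receptors CD226, TIGIT and CD96, moved in the opposite direction after wash-out. It had 4804 and 3335 reads for UT, 5602 and 4973 for Ni-E, 4134 and 2981 for Ni-W, and 3737 and 3807 for HCl3. RPKM were 21.4 and 21.7 for UT, 28.0 and 25.1 for Ni-E, 14.5 and 17.0 for Ni-W, and 16.6 and 17.6 for HCl3. Every washed-out library was below every UT library, every Ni-E library was above, and the 2 washed-out groups overlapped in RPKM.

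In Ni-W, PVR fell below Ni-E by a log2 fold change of -0.73 ± 0.11 (DESeq2 adjusted p = 1.47e-10) and in HCl3 by -0.63 ± 0.094 (2.41e-10), both past 1.5-fold. The latter was under 1.5-fold without Ni-E replicate 1, at -0.53. Against UT the log2 fold change was -0.49 ± 0.11 in Ni-W (adjusted p = 4.86e-05) and -0.39 ± 0.095 in HCl3 (0.000264), which pass the adjusted p but not 1.5-fold. Without Ni-W replicate 1 the adjusted p of the first was 0.0617, and without either HCl3 library that of the second was 0.0890 and 0.125. Once GC and length trends had been removed these became -0.80 and -0.74 and were called. Ni-E against UT gave 0.22 ± 0.12 (adjusted p = 0.223), and HCl3 against Ni-W gave 0.098 ± 0.083 (95% interval -0.066 to 0.26, adjusted p = 0.523). The RPKM of CADM4 was 0.514 to 0.558 times that of PVR in UT, 0.613 to 0.988 in Ni-E, 1.82 to 2.18 in Ni-W and 1.65 to 1.77 in HCl3, with no overlap among the groups. The microRNA gene MIR4531 lies within the PVR span on the other strand and had 0 reads.

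PVRL2 (chromosome 19, 45349393 to 45392485, plus strand), a nectin that forms adherens junctions and is bound by the inhibitory receptor PVRIG, was the most abundant member in all 8 libraries. RPKM were 55.8 and 52.8 for UT, 58.7 and 64.3 for Ni-E, 55.5 and 55.7 for Ni-W, and 71.6 and 72.8 for HCl3. HCl3 was above every other library, and UT and Ni-W overlapped. PVRL2 was higher in HCl3 than in UT by a log2 fold change of 0.36 ± 0.092 (DESeq2 adjusted p = 0.000688), than in Ni-E by 0.22 ± 0.080 (0.0167) and than in Ni-W by 0.33 ± 0.072 (9.28e-05), each under 1.5-fold. All 3 missed the adjusted p after GC and length trends had been removed, at -0.043 (adjusted p = 0.691), 0.063 (0.568) and 0.18 (0.0522), and without either HCl3 library (adjusted p = 0.0801 to 0.323). The direction of the first thus depended on the normalisation. In Ni-E and Ni-W against UT, PVRL2 was at 0.12 ± 0.11 and 0.027 ± 0.10, with adjusted p = 0.577 and 0.885. Both changed sign under that correction. The corrected value in Ni-W against UT, -0.23, passed the adjusted p (0.0265, and 0.00611 with the replicate block as well) but not 1.5-fold.

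PVRL1 (chromosome 11, 119545099 to 119599435, minus strand), a herpes simplex virus entry receptor, and PVRL3 (chromosome 3, 110791015 to 110913016, plus strand), which pairs with the other nectins across cell borders, varied little. PVRL1 was at 4.48 and 4.59 RPKM for UT, 5.39 and 5.37 for Ni-E, 4.29 and 5.00 for Ni-W, and 4.37 and 5.15 for HCl3. On this scale the washed-out groups overlapped UT, and Ni-E was above it. Read counts of PVRL1 divided by size factors ranked the groups differently, at 641 and 615 for UT, 716 and 719 for Ni-E, 741 and 819 for Ni-W, and 750 and 745 for HCl3, with every UT library lowest. The transcript length implied by its reads and RPKM differed by up to 1.34 times between libraries (1.01 to 1.12 times for the other members with at least 100 reads), so RPKM of PVRL1 is less comparable between libraries. With DESeq2, PVRL1 passed the adjusted p in 0 of 6 comparisons, with log2 fold changes from -0.057 to 0.31, the latter in Ni-W against UT with a 95% interval of 0.00998 to 0.61. That was also the 1 comparison with an unadjusted p under 0.05 (adjusted p = 0.114), and edgeR gave it an adjusted p = 0.0413, under 1.5-fold. PVRL3 was at 7.87 and 9.64 RPKM for UT, 8.37 and 7.97 for Ni-E, 8.87 and 10.5 for Ni-W, and 8.27 and 7.93 for HCl3. In RPKM, UT overlapped each of the other groups. Divided by size factors, its counts were 1371 and 1666 for UT, both above 1257 and 1204 for HCl3. With DESeq2, HCl3 against UT was at -0.30 ± 0.13 (adjusted p = 0.0657). It passed the adjusted p with edgeR (0.0457) and after GC and length correction (0.0158), but not with the replicate block as well (0.102). The only PVRL3 difference past the adjusted p in the main DESeq2 runs was HCl3 below Ni-W, at -0.33 ± 0.12 (adjusted p = 0.0291), under 1.5-fold. The 26 other genes within 5 Mb of PVRL3 with a mean normalised count of at least 50 had a median of -0.29 in that comparison. Of them, 17 lay above PVRL3. Whether PVRL3 moved with its region was not tested. Once GC and length were corrected for, the difference of PVRL3 was -0.21 (adjusted p = 0.171). The adjusted p was also missed without Ni-W replicate 2 (0.480) and without either HCl3 library (0.319 and 0.578).

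PVRL4 (chromosome 1, 161040781 to 161059385, minus strand), the epithelial receptor of measles virus, was scarce and highest during exposure. Reads were 37 and 28 for UT, 247 and 154 for Ni-E, 107 and 53 for Ni-W, and 83 and 67 for HCl3. In RPKM these were 0.25 and 0.27, 1.83 and 1.15, 0.59 and 0.43, and 0.58 and 0.44. Ni-E was above every other library, UT was below every other library, and the washed-out groups overlapped. PVRL4 was picked out earlier for its pattern over UT, Ni-E and Ni-W, so among those groups no test is given. The log2 fold changes there were 2.47 ± 0.38 in Ni-E against UT, 0.95 ± 0.46 in Ni-W against UT and -1.53 ± 0.34 in Ni-W against Ni-E. Without Ni-E replicate 1, the higher of its group, the last was -1.14.

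HCl3 libraries were not part of that choice, although the UT and Ni-E libraries compared with them were. PVRL4 was lower in HCl3 than in Ni-E by a log2 fold change of -1.56 ± 0.33, and by -1.88 to -1.17 without each library in turn. No p is given for it, because the level in Ni-E had helped to choose the gene. Against UT the difference was 0.92 ± 0.45, also with no p, because the level in UT had a part in the choice. That difference was not called with DESeq2 on the libraries of the pair. It was called with edgeR and with all 8 libraries in one fit, at 0.92 in each. HCl3 and Ni-W were close, at -0.034 ± 0.37, but the 95% interval of -0.75 to 0.69 leaves room for a difference of more than 1.5-fold. The 64 other genes within 5 Mb of PVRL4 that passed the same count minimum were centred near no change in Ni-E against UT, with 0.048 as the median on the log2 scale. In Ni-W against UT their median was 0.31, with 9 called higher and 2 lower, where 15.7% of all genes tested were called. It was 0.085 in HCl3 against UT, with 5 called higher and 2 lower, where 14.8% were called. Medians were 0.23 in Ni-W against Ni-E, 0.031 in HCl3 against Ni-E and -0.22 in HCl3 against Ni-W.

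**Figure D3:**
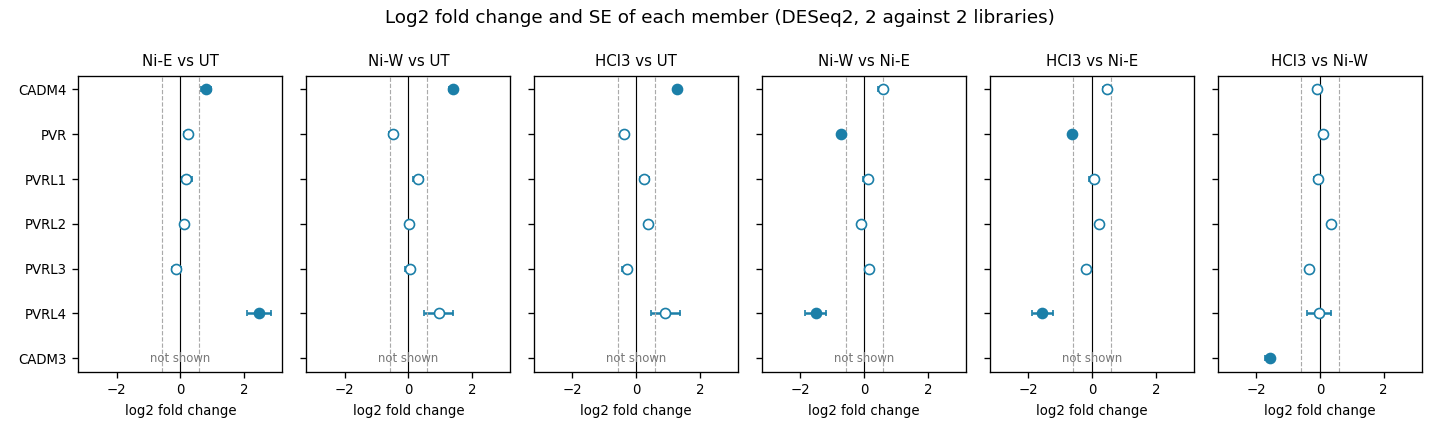
Log2 fold change (points) with its standard error (bars) from DESeq2 for each family member tested in the 6 comparisons, filled where the adjusted p is under 0.05 and the change is at least 1.5-fold (dashed lines). CADM3 is not drawn where the other group had 2 reads in all. CADM4 is filled in the 3 comparisons with UT, and PVR in the 2 comparisons of washed-out cells with Ni-E, at -0.73 and -0.63.

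Counted by comparison, with an adjusted p under 0.05 and at least 1.5-fold as a call, CADM1 and CADM2 could not be tested, and CADM3 could not be tested in Ni-E against UT. In Ni-E against UT, 2 of the 9 members were called, CADM4 and PVRL4, both higher, where 5.8% of 14478 genes tested were called and 3.75% were called higher. In Ni-W against UT, CADM3 and CADM4 were called higher, 2 of 9 against a background of 15.7% called and 10.9% called higher. In HCl3 against UT the same 2 genes were called higher, beside 14.8% of genes called and 11.1% called higher. In Ni-W against Ni-E, CADM3 was called higher and PVR and PVRL4 lower, 3 of 9 against 20.5% of genes (11.7% higher and 8.81% lower). HCl3 against Ni-E gave the same 3 genes in the same directions, against 17.1% (10.4% higher and 6.78% lower). Only CADM3 was called in HCl3 against Ni-W, where 4.77% of genes were (1.66% lower). With no fold required, the members past the adjusted p in these comparisons, in the order given, numbered 2, 3, 4, 4, 5 and 3, against 11.6, 31.1, 31.4, 39.2, 37.6 and 16.6% of genes. CADM3 and PVRL4 helped to choose the family, so their part of these counts is a description, from which nothing is read against the background. The calls that the choice did not name are those of CADM4, 1 of 9 in each comparison with UT, and of PVR, 1 of 9 in each comparison of washed-out cells with Ni-E.

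Cytoplasmic partners and proteases were read as whole lists. Of 10 partners of nectin tails, all tested, 1 was called in Ni-W and in HCl3 against UT and against Ni-E, and 0 in Ni-E against UT or HCl3 against Ni-W, beside 15.7% of all genes in Ni-W and 14.8% in HCl3 against UT, and 20.5 and 17.1% against Ni-E. In Ni-W against UT the median of the list was 0.068 on the log2 scale, and that of all genes tested was 0.010. The called gene was LMO7 (chromosome 13, 76334797 to 76434006), which links afadin to alpha-actinin. LMO7 was at 8.45 and 9.54 RPKM for UT, 8.89 and 8.78 for Ni-E, 18.1 and 20.8 for Ni-W, and 16.6 and 16.1 for HCl3. It rose by a log2 fold change of 1.07 ± 0.12 in Ni-W (DESeq2 adjusted p = 3.41e-17) and 0.80 ± 0.10 in HCl3 (7.28e-13) against UT. MLLT4, which encodes afadin, was not called, at group means of 9.87 to 12.2 RPKM.

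Of 10 partners of CADM tails, 9 were tested, and EPB41L3, a well-known scaffold of CADM1, had at most 2 reads in any library. In Ni-W against UT, 1 was called higher and 1 lower, beside 15.7% of all genes. There was 1 call in HCl3 against UT (14.8% of all genes), Ni-W against Ni-E (20.5%) and HCl3 against Ni-E (17.1%). Ni-E against UT and HCl3 against Ni-W had 0. EPB41L1 (chromosome 20, 34742662 to 34820721), another scaffold of the EPB41 family, was called higher in both washed-out groups against UT and against Ni-E. Its RPKM were 3.79 and 3.69 for UT, 3.82 and 4.07 for Ni-E, 6.03 and 7.19 for Ni-W, and 6.72 and 6.84 for HCl3, and against UT its log2 fold change was 0.79 ± 0.14 for Ni-W (adjusted p = 4.19e-07) and 0.81 ± 0.12 for HCl3 (6.36e-10). TIAM1 (chromosome 21, 32490736 to 32931290), a Rac exchange factor, was called lower in Ni-W against UT alone. TIAM1 had 6.38 and 6.81 RPKM for UT, 5.95 and 6.20 for Ni-E, 3.77 and 4.38 for Ni-W, and 4.62 and 4.81 for HCl3, and its log2 fold change was -0.73 ± 0.13 in Ni-W (adjusted p = 6.05e-07) and -0.54 ± 0.12, under 1.5-fold, in HCl3 (3.13e-05). The median of this list was -0.12 in Ni-W against UT, and that of all genes tested was 0.010.

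The proteases that cut nectins and CADM proteins at the cell surface and in the membrane showed 2 calls among 6 genes in Ni-W against UT (15.7% of all genes) and in Ni-W against Ni-E (20.5%), 1 in HCl3 against Ni-E (17.1%), and 0 in the other 3 comparisons. ADAM10 (chromosome 15, 58887403 to 59042177), a sheddase, was at 28.6 and 34.0 RPKM for UT, 25.3 and 25.9 for Ni-E, 53.2 and 55.9 for Ni-W, and 49.0 and 44.6 for HCl3. ADAM10 rose by 0.77 ± 0.11 (log2 scale) in Ni-W against UT (adjusted p = 5.18e-10) and by 0.86 ± 0.082 in HCl3 against Ni-E (1.11e-23), whereas its log2 fold change of 0.53 ± 0.11 in HCl3 against UT was under 1.5-fold. NCSTN (chromosome 1, 160313063 to 160328742), which encodes the nicastrin subunit of gamma-secretase, was at 36.8 and 37.1 RPKM for UT, 31.6 and 36.9 for Ni-E, 60.9 and 57.4 for Ni-W, and 48.8 and 50.4 for HCl3. NCSTN rose by 0.64 ± 0.10 in Ni-W against UT (adjusted p = 5.81e-09). For both genes the washed-out libraries did not overlap the others. The median of the list was 0.42 in Ni-W against UT.

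**Figure D4:**
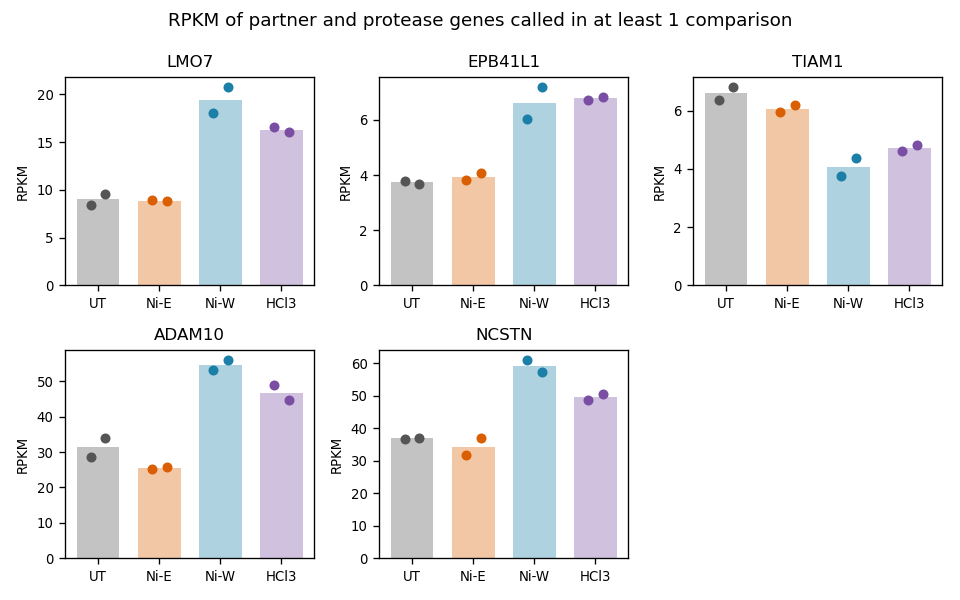
RPKM of the 5 partner and protease genes called in at least 1 comparison, with points for libraries and bars for means of the 2 libraries of a group, on linear axes from 0. LMO7, EPB41L1, ADAM10 and NCSTN are higher and TIAM1 is lower in Ni-W and HCl3 than in UT and Ni-E, with no overlap.

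The lymphocyte receptors that bind PVR, PVRL2 and CADM1 were almost absent from these cells. CD96 and CRTAM had 0 reads in all libraries, TIGIT at most 1 and CD226 at most 3. PVRIG had 5 to 44 reads per library and was not called in any comparison.

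Genes whose profile was most like that of CADM3 or PVRL4 over the 8 libraries were found by Pearson's r of log2(normalised count + 1) among 12014 genes with a mean normalised count of at least 50. For CADM3 they were TTC30A (r = 0.996), an intraflagellar transport gene, EIF4EBP2 (0.995), a repressor of translation, and PTPRN (0.993), a phosphatase-like protein of secretory granules. PTPRN was the one closest in level, at a mean of 0.01, 0, 4.09 and 1.10 RPKM in UT, Ni-E, Ni-W and HCl3, whereas EIF4EBP2 moved only between 15.2 and 22.8. For PVRL4 they were PRR5 (0.981), an mTOR complex subunit, CDKN1A (0.977), the cyclin-dependent kinase inhibitor p21, and SORD (0.973), sorbitol dehydrogenase. CDKN1A had means of 24.4, 156, 52.2 and 62.9 RPKM in UT, Ni-E, Ni-W and HCl3. The points are 2 libraries of each of 4 groups that share their depth, so these values rank profiles and carry no test.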

How the data were processed

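RNA-Seq read counts were analysed from 8 libraries of BEAS-2B cells, 2 in each of 4 groups, grouped by their labels, in which a suffix marks the repeat library. The study states biological replicates, without naming separate cultures, so p values measure the spread between these libraries. The authors aligned reads to hg19 with STAR (STAR 2.4 per the labels) and deposited read counts per RefSeq gene, made with BioWardrobe. The authors also deposited RPKM values, in which counts are scaled by transcript length and mapped reads and rounded to 2 decimals. The length used is not the same in every library for each gene, so changes were tested on counts. Strand use in counting was not stated.

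Counts were tested in R 4.3.3 with DESeq2 1.42.0 (only the 4 libraries of a pair, size factors by median of ratios, Wald test on both sides, default independent filtering, Benjamini-Hochberg adjustment over all genes tested). A gene was called at an adjusted p under 0.05 and at least 1.5-fold, the thresholds of the study. With 2 libraries against 2, an exact permutation test of one gene cannot give a p below 0.333. Alternatives used edgeR 4.0.16, limma 3.58.1 on log2-transformed RPKM with a pseudocount of 1 or 0.1, other scalings and filters, a replicate block and each library left out. Correction for GC content and length, the crossed block and the other scalings and left-out libraries of the CADM3 ratio were added after the data were seen. CADM3 ratios have exact conditional binomial intervals. Scripts were tested on simulated data.

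Named genes were the 9 members, genes of the partner and protease lists that were called, genes that overlap a member, and the 3 most similar profiles for CADM3 and PVRL4. Cell type markers came from listed genes. MLLT4, EPB41L3, the lymphocyte receptors and ACKR1 are named outside this rule, after their values were seen. The members and lists were chosen with earlier results of these data known. In 2 of the marker lists, 1 gene each is not reported here. Promoters came from RefSeq (GRCh38.p14). Python 3.11.15 and matplotlib 3.10.9 drew the figures. The study's chromatin data were not used here.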

Additional observations from a re-analysis of the deposited data

Results flagged for a closer look

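CADM3 differed between the 2 washed-out groups. It was higher than in UT in both, and HCl3 tested directly against Ni-W gave a log2 fold change of -1.57 ± 0.14 (SE, 2 libraries against 2), with both HCl3 libraries below both Ni-W libraries. CADM3 had been picked out earlier on the Ni-W libraries among others, so the value is a description and carries no p. The value stayed between -1.65 and -1.49 when each library was left out in turn.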

How the results depend on the processing

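Most results kept their direction and call. The count of family members called in Ni-E against UT (2) became 0 with limma at either pseudocount, where 3 members at a pseudocount of 1 and 4 at 0.1 had an unadjusted p under 0.05, and edgeR called 2. It became 1 at 2-fold and 1 after GC and length trends were removed, alone or with the block. With no fold threshold the count was 4 in HCl3 against UT, 5 in HCl3 against Ni-E and 3 in HCl3 against Ni-W. Without each library in turn it ranged from 1 to 2 in Ni-E against UT and in HCl3 against UT, 2 to 2 in Ni-W against UT, 2 to 4 in Ni-W and HCl3 against Ni-E, and 1 to 1 in HCl3 against Ni-W.

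The labels tie no replicate number to a shared culture or day, and deviations of same-numbered libraries had an r of -0.116 to 0.222 across genes. With the replicate block, 2 members were called in each comparison with UT, 4 in Ni-W against Ni-E (CADM4 in addition, at 0.60), 3 in HCl3 against Ni-E and 1 in HCl3 against Ni-W. The crossed pairing, run where r was under -0.1, gave 2, 2 and 4 in Ni-E against UT, HCl3 against UT and Ni-W against Ni-E. Over all genes the block moved the count by more than 1.5 times in Ni-E against UT (840 to 491, and 402 with the GC and length correction) and in HCl3 against Ni-W (713 to 455, and 433).

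Over all genes, limma called 0 in Ni-E against UT at either pseudocount. At a pseudocount of 1 it called 1409 genes against 2484 with DESeq2 in Ni-W against UT, 1305 against 2333 in HCl3 against UT, 1989 against 3276 in Ni-W against Ni-E, 1655 against 2734 in HCl3 against Ni-E, and 247 (267 at 0.1) against 713 in HCl3 against Ni-W. Without 1 library the counts fell as low as 356 in Ni-E against UT, 1516 in Ni-W against UT, 1339 in HCl3 against UT, 1757 in HCl3 against Ni-E and 327 in HCl3 against Ni-W.

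Signs turned for nectin values that were not called, and for CADM3 in Ni-E against UT, which rests on 2 reads in each group and is not reported as a fold. After GC and length correction, alone and with the block, log2 fold changes became -0.109 and -0.108 for PVRL2 in Ni-E against UT, -0.233 and -0.232 in Ni-W against UT and -0.0431 and -0.0426 in HCl3 against UT. For PVRL1 they became -0.0572 and -0.0588 in Ni-W against UT, -0.250 and -0.251 in HCl3 against UT, -0.0916 and -0.0917 in Ni-W against Ni-E, and -0.293 and -0.292 in HCl3 against Ni-E. For PVRL3 they became -0.0701 and -0.0724 in Ni-W against UT and -0.0208 and -0.0225 in Ni-W against Ni-E. With limma at pseudocounts of 1 and 0.1, PVRL1 was at -0.179 and -0.212 in Ni-W against Ni-E, -0.151 and -0.178 in HCl3 against Ni-E, and 0.0286 and 0.0339 in HCl3 against Ni-W, and PVRL4 at 0.00048 and 0.0030 in HCl3 against Ni-W. Without 1 library, PVRL3 ranged from -0.267 to 0.0081 in Ni-E against UT (above 0 without UT replicate 2) and from -0.110 (Ni-W replicate 2) to 0.181 in Ni-W against UT, with -0.0953 without UT replicate 1. PVRL2 ranged from -0.0148 (UT replicate 2) to 0.0655 in Ni-W against UT. In HCl3 against Ni-W, PVRL1 ranged from -0.132 to 0.0130 (Ni-W replicate 2) and PVRL4 from -0.230 to 0.209 (Ni-W replicate 1), with 0.141 without HCl3 replicate 2. The cause of these changes was not tested. CADM3 ratios against UT and Ni-E ranged from 281 to 938 under the 3 scalings. Depth limits CADM1, CADM2 and PVRL4, and the CADM3 ratios, which rest on 2 reads in the lower group.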
